A study of Mus musculus with 12 samples.

Results

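A set of 9 genes of extracellular proteolysis was followed through mouse sciatic nerve after transection. They are the matrix metalloproteinases Mmp2, Mmp9, Mmp14 and Mmp19, the tissue inhibitors of metalloproteinases Timp1, Timp2 and Timp3, and the plasminogen activators Plat and Plau. They were chosen by name, are 9 of 38087 gene models in the count table, and all 9 were among the 22384 that passed the filter on low counts. Bulk RNA was sequenced from 4 groups of 3 libraries each. Injured dKO nerve was the stump distal to a transection, taken at 5 days (5DPI), from Tfeb/3 SC-dKO mice with the genotype Dhh-Cre+:Tfebflox/flox;Tfe3KO. Injured control nerve was the same stump of Dhh-Cre-:Tfebflox/flox;Tfe3+ mice. Intact dKO nerve and intact control nerve came from the uninjured side of the body, collected together with the injured nerves. All 4 groups therefore carried the Tfebflox/flox alleles, and all intact nerves came from mice with an injury elsewhere. Dhh drives Cre in the Schwann cell lineage, while Tfe3 was lost in every cell of the dKO mice, so that loss in Schwann cells and loss in other cells of the nerve cannot be told apart. Intact nerves had their epineurium removed, a step the protocol does not mention for the injured stumps. The age of the mice is not known here. The series describes the 3 libraries of a group as biological replicates without saying which mouse each came from, so p-values measure the spread between these libraries.

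Matrix metalloproteinases are zinc enzymes that cut collagens, laminins and other proteins of the extracellular matrix, and are made as inactive precursors. TIMP proteins bind the active enzymes and block them, and TIMP2 has a second role as the adaptor through which the membrane enzyme MMP14 captures and activates the precursor of MMP2. Tissue-type plasminogen activator (Plat) and urokinase (Plau) turn plasminogen into plasmin, which dissolves fibrin and can activate some metalloproteinase precursors. In a transected nerve the distal axons and their myelin break down, Schwann cells change into repair cells, macrophages enter, and the matrix is remodelled ahead of regrowth. MMP9 is known in this tissue for cutting myelin basic protein and opening the barrier between blood and nerve, and mouse tPA for clearing fibrin.

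Library totals ran from 15430999 to 35845371 counts. Levels are given as CPM, the count of a gene relative to the library total, scaled between libraries with TMM factors. Tfeb stood at 14.2, 19.6 and 29.8 CPM in dKO 5DPI nerve, at 24.0, 18.2 and 18.4 CPM in control 5DPI nerve, at 17.0, 19.5 and 17.3 CPM in dKO intact nerve and at 22.6, 23.9 and 26.9 CPM in control intact nerve. Tfe3 averaged 51.9 ± 2.21 CPM in dKO 5DPI nerve, against 61.4 ± 6.35 CPM in control 5DPI nerve, and 45.7 ± 2.11 CPM in dKO intact nerve, against 59.8 ± 2.83 CPM in control intact nerve (SD, n = 3 each). Neither gene was called between genotypes, and a count over a whole gene model in all cells of the nerve is not a check of a deletion of some exons in 1 cell type. Control 5DPI replicate 1 was the only library with Xist reads typical of a female (10712 counts, against at most 23 in the others). It also held 244 counts on Y-linked genes, against 1907 to 3724 in the others, and is called the female library below. Its summed red cell markers were 7962 CPM, against 176 to 1220 CPM in the other 5DPI libraries. A fit without this library, or with a sex term, therefore does not isolate sex. Control 5DPI replicate 4 and the 3 dKO 5DPI libraries held reads on 171 to 375 olfactory receptor genes at equal depth, against 51 to 76 in the other 8 libraries, and are called the second library set below. A fit with a term for this set compares dKO 5DPI nerve with control replicate 4 alone. No dKO intact library is in this set, so injury and library set cannot be told apart in dKO nerve. Summed markers of Schwann cells were between 4279 and 5297 CPM in dKO 5DPI nerve, against 62171 to 72883 CPM in dKO intact nerve, and between 3597 and 5040 CPM in control 5DPI nerve, against 57183 to 74080 CPM in control intact nerve. Summed macrophage markers were 847 to 1048 CPM in dKO 5DPI nerve and 846 to 1164 CPM in control 5DPI nerve, against 272 to 362 CPM and 249 to 332 CPM in the intact nerves of the same genotypes.

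**Figure D1:**
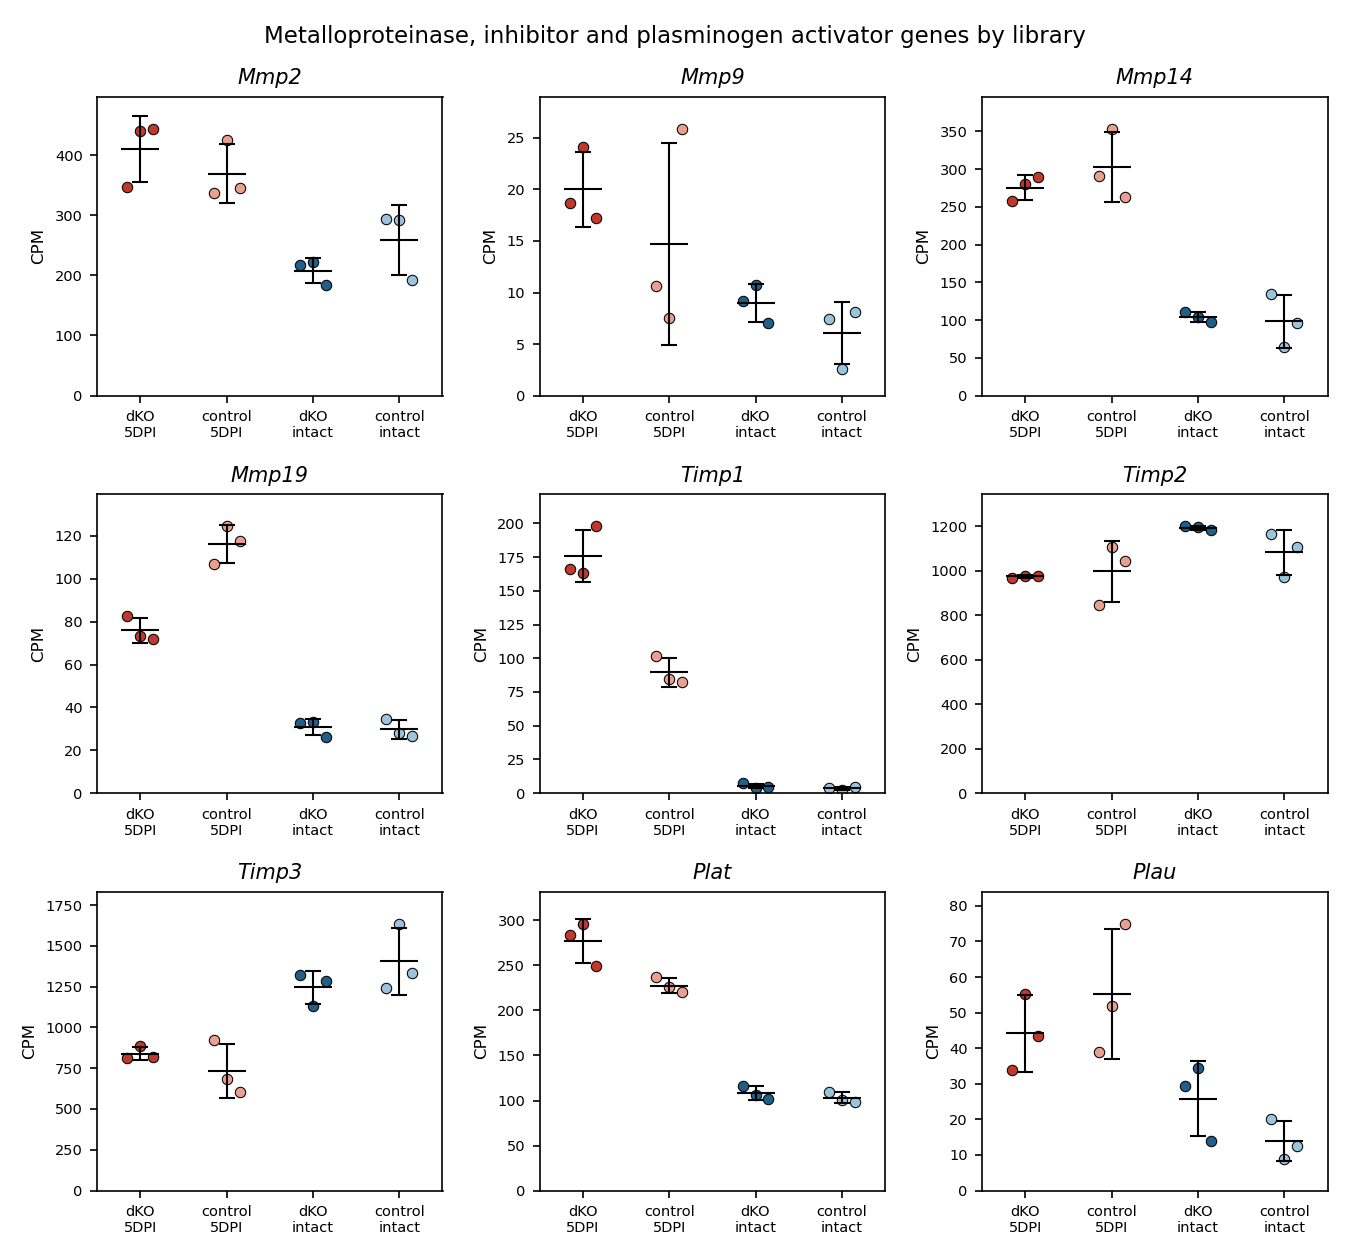
Level of each of the 9 genes in CPM (y axis, linear, from 0) in the 12 libraries, by group (x axis); points are libraries, horizontal marks are means and bars are SD (n = 3). Timp1 is near 0 in all 6 intact libraries and between 82.1 and 198 CPM after transection, and the dKO and control 5DPI points are separate for Mmp19, Timp1 and Plat.

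Transection raised most of the 9 genes in both genotypes. In dKO nerve 5 were called higher and 2 lower at 5 days, and in control nerve 7 were called higher and 1 lower. Among all genes tested, 44.7% were called in dKO nerve (22.0% higher and 22.6% lower) and 46.8% in control nerve (24.4% higher and 22.4% lower). The median log2 change of the 9 genes was 1.16 in dKO nerve, beside 0.051 over all genes, and 1.27 in control nerve, beside 0.093 over all genes. Levels of 5DPI and intact nerve did not overlap for 8 of the 9 genes in dKO nerve, where 61.0% of all genes were so separated, and for 7 of the 9 in control nerve, where 53.3% were. With upper-quartile scaling, which moved the median of all genes in dKO nerve to 0.19, the calls there were 6246 higher and 4044 lower, against 4930 and 5067, and Timp2 was no longer among them (-0.15, adjusted p = 0.304). Both injury comparisons and both genotype comparisons draw on the same 12 libraries. A change in a bulk sample can come from more cells of a type or from more RNA per cell, and fewer cells of a type and less RNA per cell cannot be told apart either. Calls throughout are from edgeR's quasi-likelihood test at a Benjamini-Hochberg adjusted p under 0.05 over all genes tested.

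Mmp2 (chr8:92827291-92853420, plus strand, mm10) encodes gelatinase A, which digests denatured collagen and basement membrane collagen. It was at 347, 440.5 and 444 CPM in dKO 5DPI nerve, against 216, 223 and 185 CPM in dKO intact nerve. In control mice it was at 337, 425 and 345 CPM in 5DPI nerve, against 294, 292 and 192 CPM in intact nerve. Every 5DPI library was above every intact one, though control intact nerve spread widely. The rise was 1.97-fold in dKO nerve (log2 change 0.98, SE 0.16, adjusted p = 0.000237) and 1.42-fold in control nerve (0.51, SE 0.16, adjusted p = 0.0191). The call in control nerve was lost without control 5DPI replicate 2 (0.39, adjusted p = 0.0955), without control intact replicate 3 (0.33, adjusted p = 0.0987) and without dKO intact replicate 2 (0.43, adjusted p = 0.0537).

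Mmp14 (chr14:54431612-54445364, plus strand) encodes MT1-MMP, the membrane-anchored collagenase that activates the MMP2 precursor at the cell surface. It was at 258, 280.0 and 289 CPM in dKO 5DPI nerve, against 110.4, 104 and 96.8 CPM in dKO intact nerve. It was at 291, 354 and 263 CPM in control 5DPI nerve, against 134, 64.4 and 95.7 CPM in control intact nerve. The injured libraries were all higher than the intact ones, and the lowest intact value was that of control replicate 2, the library with the lowest summed perineurial markers (1467 CPM, against 2791 CPM in the highest of that group). Mmp14 rose 2.66-fold in dKO nerve (1.41, SE 0.20, adjusted p = 9.28e-05) and 3.08-fold in control nerve (1.62, SE 0.21, adjusted p = 2.18e-05).

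Mmp19 (chr10:128790910-128800824, plus strand) encodes a secreted metalloproteinase that cuts basement membrane proteins. It was at 82.5, 73.4 and 72.0 CPM in dKO 5DPI nerve, against 32.7, 33.0 and 26.3 CPM in dKO intact nerve. It was at 107, 125 and 118 CPM in control 5DPI nerve, against 34.8, 27.9 and 26.5 CPM in control intact nerve. Injured and intact libraries were far apart in both genotypes, and the control 5DPI libraries stood above all others. The rise was 2.48-fold in dKO nerve (1.31, SE 0.13, adjusted p = 1.36e-06) and 3.91-fold in control nerve (1.97, SE 0.13, adjusted p = 1.71e-08).

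Mmp9 (chr2:164940780-164955850, plus strand) encodes gelatinase B and had the lowest level per length of the 9 genes in every group. It was at 18.7, 24.1 and 17.2 CPM in dKO 5DPI nerve, against 9.15, 10.8 and 7.06 CPM in dKO intact nerve. It was at 10.7, 7.55 and 25.9 CPM in control 5DPI nerve, against 7.39, 2.60 and 8.12 CPM in control intact nerve. The dKO groups were separate, and the control groups overlapped, with 1 high 5DPI library (replicate 4) and 1 low intact library (replicate 2). The log2 change was 1.16 in dKO nerve (SE 0.47, adjusted p = 0.0670) and 1.27 in control nerve (SE 0.48, adjusted p = 0.0474). The change in dKO nerve passed in 7 of 25 alternative settings. It was of opposite sign with the library set term (-0.35), which rests on control 5DPI replicate 4. The call in control nerve held in 7 of 25 alternative settings and was lost without control 5DPI replicate 4 (0.59, adjusted p = 0.234). Neutrophil markers, whose cells carry much MMP9 protein, summed to 13.5 to 17.8 CPM in dKO 5DPI nerve and 15.0 to 18.6 CPM in control 5DPI nerve, against at most 3.52 CPM in intact nerve. Of the 11 markers, 0 to 5 were at 0 in a 5DPI library and 3 to 6 in an intact one, and their part in the level of Mmp9 was not tested.

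Timp1 showed the largest injury change of the 9 genes in both genotypes. Timp1 (chrX:20870166-20874735, plus strand) encodes a small secreted inhibitor that binds the MMP9 precursor and blocks most soluble metalloproteinases, and is a weak inhibitor of MMP14. It was at 166, 163 and 198 CPM in dKO 5DPI nerve, against 7.12, 3.84 and 4.51 CPM in dKO intact nerve. It was at 102, 84.9 and 82.1 CPM in control 5DPI nerve, against 3.77, 2.27 and 4.29 CPM in control intact nerve. These levels rest on 2000 to 5872 counts in the injured libraries and 55 to 186 in the intact ones. Timp1 rose 34.2-fold in dKO nerve (5.10, SE 0.25, adjusted p = 8.07e-09) and 25.8-fold in control nerve (4.69, SE 0.25, adjusted p = 9.09e-09).

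Timp1 lies inside the gene Syn1, which encodes the synaptic vesicle protein synapsin I and runs on the opposite strand (chrX:20860511-20921004), with no exon in common in the GENCODE M21 annotation. The counts of Syn1 exceeded those of Timp1 by 238 to 632 in every library, and a number equal to the Timp1 counts made up 81.9% to 93.5% of the Syn1 counts at 5DPI and 14.9% to 43.6% in intact nerve. Syn1 counts were therefore not read here as synapsin. Timp3 also lies inside a gene on the opposite strand, Syn3, with which it shares 1733 exonic bases, and a number equal to the Timp3 counts made up 97.0% to 98.9% of the Syn3 counts. Neither the counting method nor the use of strand is stated in the labels.

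The start of Timp1 and that of Mmp14, both higher after transection in both genotypes, are shown as the 250 bases before the annotated start in RefSeq (GRCm38.p6, plus strand, 5′ to 3′), with CG dinucleotides in capitals. The windows are chrX:20869916-20870165 and chr14:54431348-54431597.
Timp1: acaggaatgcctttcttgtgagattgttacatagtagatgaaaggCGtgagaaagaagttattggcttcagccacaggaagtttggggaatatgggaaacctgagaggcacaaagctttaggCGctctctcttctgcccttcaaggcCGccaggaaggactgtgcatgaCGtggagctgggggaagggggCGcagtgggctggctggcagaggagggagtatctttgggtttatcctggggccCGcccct
Mmp14: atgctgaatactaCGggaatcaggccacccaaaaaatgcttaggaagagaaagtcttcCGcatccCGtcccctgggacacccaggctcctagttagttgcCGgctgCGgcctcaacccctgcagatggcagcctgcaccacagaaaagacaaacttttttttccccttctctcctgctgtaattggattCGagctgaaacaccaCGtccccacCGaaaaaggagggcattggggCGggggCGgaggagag
The Timp1 window holds 6 CG dinucleotides, the same as the median of 32841 promoter windows of this length, and the Mmp14 window holds 10. Searched on both strands, the E-box core CACGTG, its longer form TCACGTG bound by the TFEB and TFE3 family, and the AP-1 motif TGANTCA were in none of the windows of the 4 genes with an entry in the table (Timp1, Timp2, Timp3 and Mmp14). Of all windows, 6.02% held CACGTG, 3.13% held TCACGTG, which contains it, and 6.75% held TGANTCA. The absence says only that these letters are not in these 250 bases.

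The other inhibitors moved the opposite way or little. Timp2 (chr11:118301069-118355740, minus strand), which inhibits MMP14 and with it activates MMP2, was at 968, 977 and 977 CPM in dKO 5DPI nerve, against 1200.5, 1196 and 1182 CPM in dKO intact nerve. It was at 844, 1106 and 1043 CPM in control 5DPI nerve, against 1166, 972 and 1108 CPM in control intact nerve. Only the dKO groups were separate. The change was a small fall in dKO nerve (-0.29, SE 0.11, adjusted p = 0.0465), called in 13 of 25 alternative settings, and the change did not pass in control nerve (-0.12, adjusted p = 0.418).

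Timp3 (chr10:86300372-86349506, plus strand) encodes the inhibitor that stays bound to the matrix and also blocks ADAM17 and aggrecanases. It was at 812, 887 and 818 CPM in dKO 5DPI nerve, against 1322, 1132 and 1284 CPM in dKO intact nerve. It was at 920.4, 681 and 603 CPM in control 5DPI nerve, against 1244, 1637 and 1332 CPM in control intact nerve. Every injured library was below every intact one. The fall was 1.49-fold in dKO nerve (-0.57, SE 0.15, adjusted p = 0.00667) and 1.91-fold in control nerve (-0.93, SE 0.15, adjusted p = 0.000136). With the term for the second library set, which rests on control 5DPI replicate 4, the change in dKO nerve was -0.16.

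Of the plasminogen activators, Plat (chr8:22757727-22782844, plus strand), the gene of tissue-type plasminogen activator, was at 284, 297 and 249.7 CPM in dKO 5DPI nerve, against 117, 106 and 102 CPM in dKO intact nerve. It was at 237, 226 and 221 CPM in control 5DPI nerve, against 109.7, 101 and 98.7 CPM in control intact nerve. Replicates lay close together and the injured libraries were all more than 200 CPM. Plat rose 2.56-fold in dKO nerve (1.36, SE 0.10, adjusted p = 9.04e-08) and 2.21-fold in control nerve (1.14, SE 0.10, adjusted p = 3.02e-07).

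Plau (chr14:20836660-20843385, plus strand), the gene of urokinase, was at 33.8, 55.4 and 43.3 CPM in dKO 5DPI nerve, against 29.3, 34.3 and 13.9 CPM in dKO intact nerve. It was at 38.9, 51.8 and 75.0 CPM in control 5DPI nerve, against 20.1, 8.89 and 12.6 CPM in control intact nerve. The dKO groups overlapped by 1 library on either side, and the control groups were separate. Plau rose 3.97-fold in control nerve (1.99, SE 0.41, adjusted p = 0.00250), and its change in dKO nerve did not pass (0.77, SE 0.40, adjusted p = 0.140). The difference between the genotypes in this change was -1.22 (SE 0.56, adjusted p = 0.330).

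**Figure D2:**
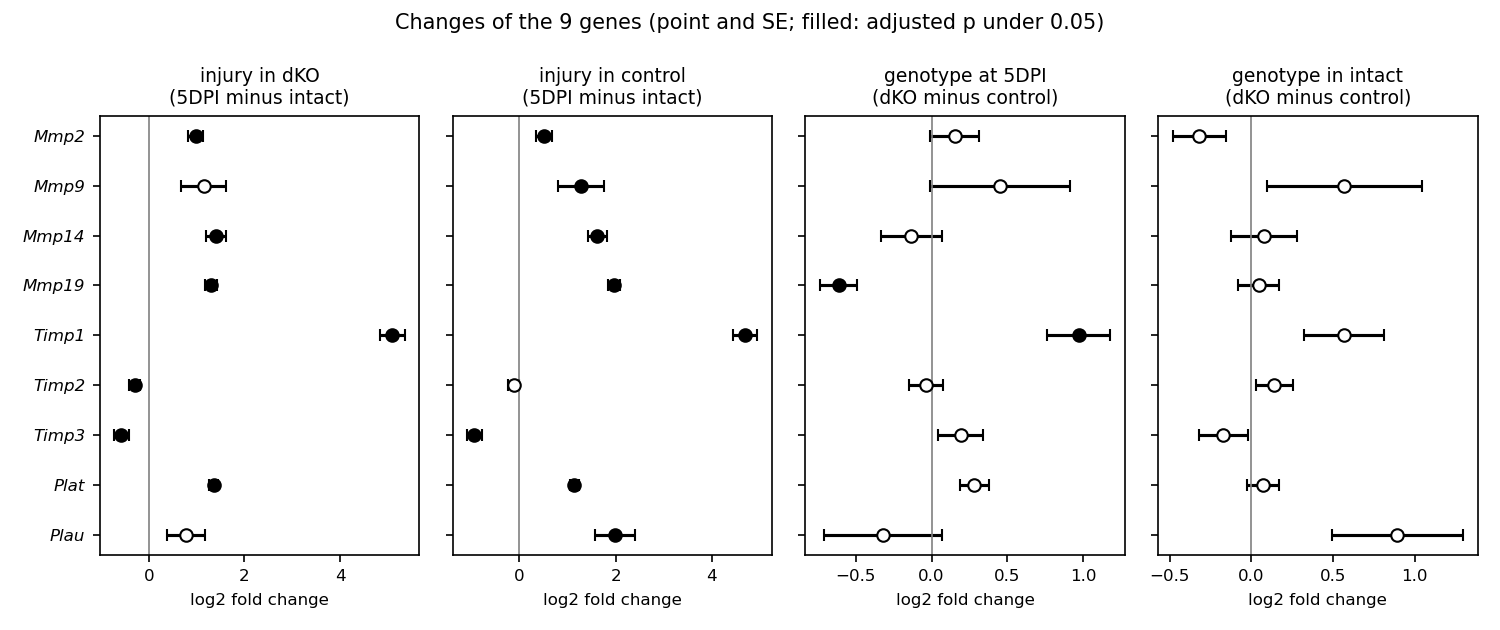
Log2 fold change (x axis, a scale of its own in each panel) of the 9 genes (rows) in dKO and control nerve after transection (5DPI minus intact) and between genotypes (dKO minus control) at 5DPI and in intact nerve; bars are SE and filled points have an adjusted p under 0.05. Timp1 changes most after transection (5.10 in dKO and 4.69 in control nerve), and between genotypes the filled points are Timp1 (0.97) and Mmp19 (-0.61) at 5DPI.

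At 5 days the genotypes differed in 2 of the 9 genes: Timp1 was higher and Mmp19 lower in dKO nerve. Among all genes, 12.1% were called, 3.12% higher and 8.97% lower in dKO nerve, and 2 calls among 9 genes are close to that share. Timp1 averaged 176 ± 19.4 CPM in dKO 5DPI nerve and 89.6 ± 10.6 CPM in control 5DPI nerve (SD, n = 3 each), a 1.96-fold difference (log2 0.97, SE 0.21, adjusted p = 0.00898). Mmp19 averaged 76.0 ± 5.71 CPM in dKO 5DPI nerve and 116 ± 8.91 CPM in control 5DPI nerve, a 1.53-fold lower level (-0.61, SE 0.12, adjusted p = 0.00486). The lowest dKO value of Timp1 (163 CPM) was above the highest control value (102 CPM), and the highest dKO value of Mmp19 (82.5 CPM) was below the lowest control value (107 CPM). The dKO 5DPI libraries thus had more RNA of an inhibitor and less of a metalloproteinase than the control 5DPI libraries.

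Both calls held in 23 of 25 alternative settings, including each of the 12 fits with a library left out, in which Timp1 ran between 0.87 and 1.07 and Mmp19 between -0.68 and -0.57. Within the second library set, where control replicate 4 is the only control, the values were as large (1.10 for Timp1 and -0.63 for Mmp19) and did not pass (adjusted p = 0.143 and 0.0975). Upper-quartile scaling moved the median of all genes at 5 days to 0.089, against -0.018, and the called genes to 1075 higher and 1345 lower, against 699 and 2008. Under it Timp1 was at 1.08 and Mmp19 at -0.51, both called. Mmp19 shares 789 exonic bases at its 3′ end with Tmem198b on the opposite strand, which stood at -0.14 between genotypes at 5 days (adjusted p = 0.368). Timp1 lies 13.1 Mb from Tfe3 on the X chromosome.

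Plat was the third gene whose 5DPI groups did not overlap between genotypes, which 3 of the 9 genes and 30.5% of all genes did not. It averaged 277 ± 24.3 CPM in dKO 5DPI nerve and 228 ± 8.34 CPM in control 5DPI nerve, and its log2 difference of 0.28 (SE 0.10, adjusted p = 0.0767) passed in 5 of 25 alternative settings, DESeq2 (adjusted p = 0.0265) and upper-quartile scaling (adjusted p = 0.0202) among them. The other 6 genes overlapped between genotypes at 5 days. Their log2 differences were 0.15 for Mmp2, 0.45 for Mmp9, -0.13 for Mmp14, -0.035 for Timp2, 0.19 for Timp3 and -0.32 for Plau, with adjusted p between 0.436 and 0.872. Within the second library set Mmp9 was at -0.37 and Mmp14 at 0.068, the opposite sign to the values over all libraries.

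Summed endothelial markers were 629 to 863 CPM in dKO 5DPI nerve and 467 to 536 CPM in control 5DPI nerve, and did not overlap. Fibroblast markers summed to 3683 to 4380 CPM in dKO 5DPI nerve and 2639.7 to 3835 CPM in control 5DPI nerve, and macrophage and Schwann cell sums overlapped between the genotypes as well. Single Schwann cell markers went both ways, with 3 of 10 called higher and 5 lower in dKO 5DPI nerve (median log2 difference -0.51). All listed markers of these 4 cell types were detected in every 5DPI library. The part of cell makeup in the levels of Timp1 and Mmp19 was not tested.

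In intact nerve no member was called between genotypes, where 1 gene in all, or 0.00447% of those tested, was called. DESeq2 called none of the 9 either. At an unadjusted p under 0.05 there was 1 of the 9, Timp1, at 5.16 ± 1.73 CPM in dKO intact nerve and 3.44 ± 1.05 CPM in control intact nerve (0.57, SE 0.24, adjusted p = 0.850). Of all 22384 genes tested, 1299 had an unadjusted p under 0.05 in this comparison. Timp2 was the 1 gene of 9 whose intact groups did not overlap, at 1193 ± 9.75 CPM in dKO and 1082 ± 99.4 CPM in control nerve (0.14, adjusted p = 0.898), beside 14.6% of all genes. Plau had the largest log2 difference of the 9 genes in either direction, with 25.8 ± 10.7 CPM in dKO and 13.9 ± 5.72 CPM in control intact nerve, and its groups overlapped (0.89, SE 0.40, adjusted p = 0.856).

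The test of whether transection changed a gene differently in the genotypes called none of the 9, and 2.90% of all genes (165 higher and 485 lower). Upper-quartile scaling gave 224 higher and 296 lower and moved the median of all genes to 0.096, against -0.032. Mmp19 came nearest, with a rise that was smaller in dKO nerve by 0.66 on the log2 scale (difference -0.66, SE 0.18, adjusted p = 0.0623), and passed in 4 of 24 alternative settings, among them DESeq2 (adjusted p = 0.0338). For Timp1 the difference was 0.41 (SE 0.32, adjusted p = 0.597). The genotype difference of Timp1 at 5 days was thus called without a call for a different response to injury. No member was called at an unadjusted p under 0.05 in this test except Mmp19, beside 3543 of all 22384 genes tested.

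Levels per kilobase were divided by exon lengths in GENCODE M21, while the counting method is not stated. If reads were counted over other lengths, the ranks between genes, and the shares and ratios below, could change. Per kilobase of exon, the level of Timp2 was the highest of the 9 genes in all 4 groups. In dKO 5DPI nerve it was at 249.97 CPM per kilobase, followed by Timp1 at 198, Mmp2 at 122, Timp3 at 103, Mmp14 at 46.2, Plat at 44.4, Mmp19 at 21.5, Plau at 18.7 and Mmp9 at 5.65. In control 5DPI nerve it was at 256 CPM per kilobase, followed by Mmp2 at 109, Timp1 at 101, Timp3 at 90.2, Mmp14 at 50.7, Plat at 36.5, Mmp19 at 32.9, Plau at 23.3 and Mmp9 at 4.16. Neighbours whose libraries overlapped were Mmp2 and Timp3, Mmp14 and Plat, and Mmp19 and Plau in dKO 5DPI nerve, and Mmp2 and Timp1, Timp1 and Timp3, and Mmp19 and Plau in control 5DPI nerve. Timp1 was therefore separate from Mmp2 in dKO 5DPI nerve and not in control 5DPI nerve. In intact nerve Timp1 was eighth, at 5.81 CPM per kilobase in dKO and 3.88 in control nerve, a mean below all but that of Mmp9, with libraries that overlapped those of Mmp19 in dKO and Plau in control nerve.

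The makeup of the inhibitor RNA was computed from the same values. The share, sum and ratio below are therefore not independent of the Timp1 difference at 5 days. Per kilobase, in dKO against control 5DPI nerve, Timp1 was at 198 against 101, Timp2 at 250 against 256 and Timp3 at 103 against 90.2. Timp1 made up 35.9% ± 2.64 of the summed level of Timp1, Timp2 and Timp3 per kilobase in dKO 5DPI nerve and 22.6% ± 2.80 in control 5DPI nerve, against 1.24% ± 0.381 in dKO intact nerve and 0.854% ± 0.259 in control intact nerve (SD, n = 3 each). Libraries ran from 33.8% to 38.8% in dKO 5DPI nerve and from 20.6% to 25.8% in control 5DPI nerve. The summed level itself was 551 ± 20.5 CPM per kilobase in dKO 5DPI nerve, against 447 ± 14.7 in control 5DPI nerve, 465 ± 14.1 in dKO intact nerve and 454 ± 1.89 in control intact nerve. The dKO 5DPI sum was above all others, and the control 5DPI sum overlapped that of control intact nerve, where Timp3 was lower and Timp1 higher after transection. With 3 libraries against 3, an exact two-sided permutation test cannot go below p = 0.1, which it gave for the share and for the sum between genotypes at 5 days.

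**Figure D3:**
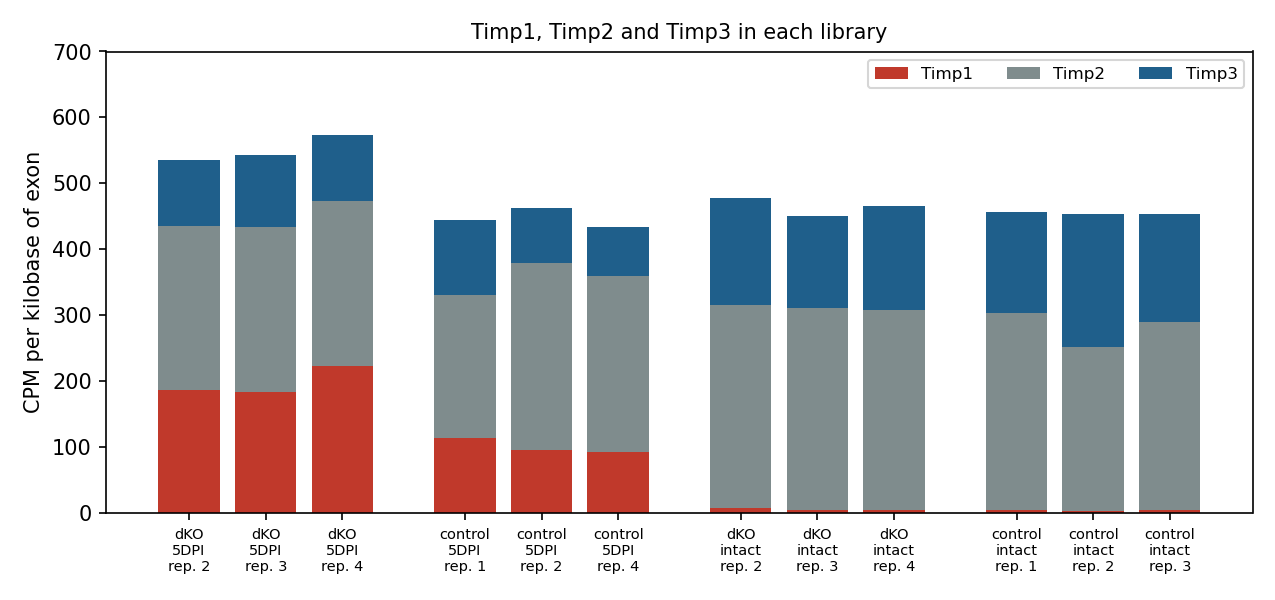
Level of Timp1, Timp2 and Timp3 in each of the 12 libraries, stacked, in CPM per kilobase of exon (y axis, from 0); bars are grouped as dKO 5DPI, control 5DPI, dKO intact and control intact. Timp1 is a thin strip in intact nerve and 33.8% to 38.8% of the stack in dKO 5DPI nerve, against 20.6% to 25.8% in control 5DPI nerve.

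The 4 metalloproteinases summed to 195 ± 17.7 CPM per kilobase in dKO 5DPI nerve, against 197 ± 22.3 in control 5DPI nerve, 90.3 ± 8.52 in dKO intact nerve and 104 ± 19.5 in control intact nerve. The sums at 5 days overlapped between genotypes. The ratio of metalloproteinase to inhibitor RNA was 0.354 ± 0.0258 in dKO 5DPI nerve and 0.441 ± 0.0367 in control 5DPI nerve, with every dKO library (0.327 to 0.378) below every control one (0.410 to 0.481), against 0.194 ± 0.0202 in dKO intact nerve and 0.228 ± 0.0422 in control intact nerve. The exact two-sided permutation test gave p = 0.1, the smallest possible here, for this ratio between genotypes at 5 days and for 5DPI against intact nerve in each genotype. The ratio was higher in every 5DPI library than in any intact one, and the dKO injured libraries lay between intact and control injured ones. These are sums of RNA, and a ratio of RNA is not a measure of enzyme activity, which also depends on activation of the precursors.

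**Figure D4:**
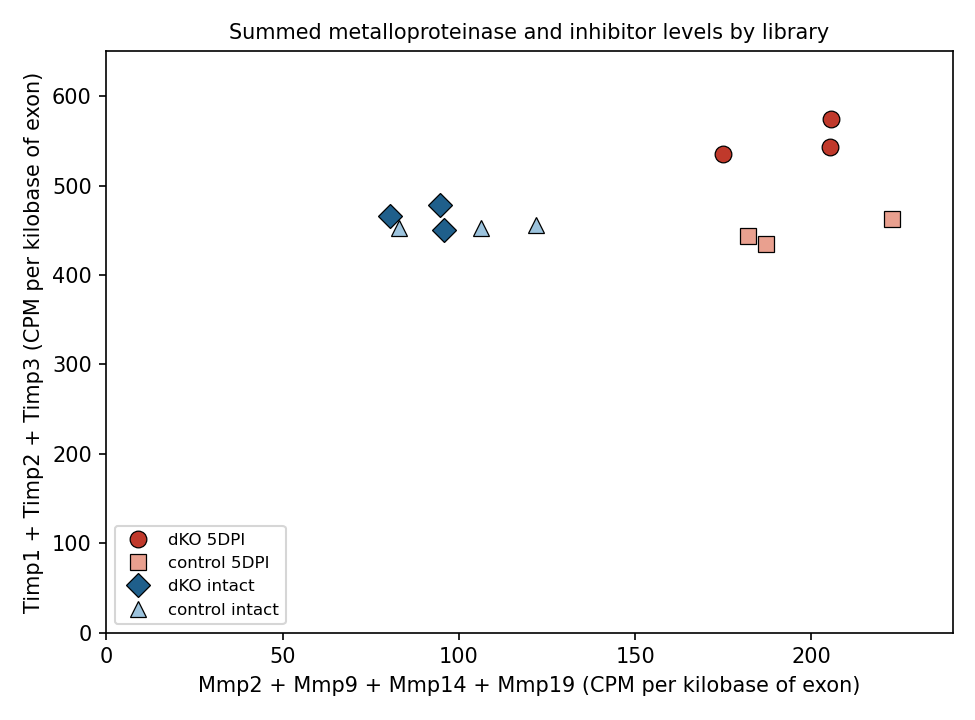
Summed level of Mmp2, Mmp9, Mmp14 and Mmp19 (x axis) against that of Timp1, Timp2 and Timp3 (y axis) in the 12 libraries, both in CPM per kilobase of exon and starting at 0. Transection moves the points to the right in both genotypes, and the 3 dKO 5DPI points lie above the 3 control 5DPI points (inhibitor sums of 535 to 574, against 434 to 463).

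Other genes of these pathways were counted from lists of known members. The median log2 difference between genotypes at 5 days was 0.038 over other metalloproteinases, 0.59 over other inhibitors, 0.32 over the plasminogen system, 0.094 over Adam genes, 0.27 over Adamts genes, -0.019 over genes of activation and docking, 0.47 over substrates and -0.20 over AP-1 factors, beside -0.018 over all genes. Of 15 other metalloproteinase genes tested, 2 were higher and 1 was lower in dKO 5DPI nerve than in control 5DPI nerve. Among all genes, 3.12% were called higher and 8.97% lower. Mmp15, a membrane-type relative of Mmp14, was at 191 ± 12.1 CPM in dKO 5DPI nerve and 121 ± 14.4 CPM in control 5DPI nerve (0.66, adjusted p = 0.00146), and Mmp28, a secreted enzyme, was at 25.7 ± 5.82 CPM and 18.1 ± 0.571 CPM in these groups (0.51, adjusted p = 0.0311). The call of Mmp15 held in all 12 fits with a library left out, and that of Mmp28 in 8 of them. Mmp17, a membrane enzyme held by a lipid anchor, was lower, at 106 ± 13.2 CPM in dKO 5DPI nerve and 161 ± 28.4 CPM in control 5DPI nerve (-0.60, adjusted p = 0.00655). After transection itself, 6 of the 15 rose and 4 fell in dKO nerve, beside 22.0% and 22.6% of all genes. In control nerve 4 rose and 3 fell, beside 24.4% and 22.4% of all genes. Mmp15 fell in both (-1.68 in dKO and -2.27 in control nerve). None of 5 other inhibitors was called between genotypes at 5 days by edgeR or by DESeq2, although all 5 had a positive log2 difference and 3 an unadjusted p under 0.05 in each. In edgeR, 6070 of all 22384 genes tested had an unadjusted p under 0.05 there. Reck, a membrane-anchored inhibitor, fell after transection by 1.61 on the log2 scale in dKO nerve and by 1.88 in control nerve. Timp4, the remaining TIMP, was at 33.3, 6.72 and 9.30 CPM in dKO 5DPI nerve and 1.85, 2.48 and 7.97 CPM in control 5DPI nerve (adjusted p = 0.157). Its highest value came from dKO 5DPI replicate 2, in which summed markers of the vessel wall were also highest (2589 CPM, against 627 to 1046 CPM in the other 5DPI libraries).

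Of 10 further genes of the plasminogen system, 3 were higher and 1 lower in dKO 5DPI nerve, beside 3.12% and 8.97% of all genes. DESeq2 called 3 higher and 3 lower, and the sex term left 1 higher. The calls of Lrp1 and Serpini1, 2 of the 3 that were higher, held in 3 and 4 of the 12 fits with a library left out, and that of Serpine2 in all 12. Serpine2 (protease nexin-1), an inhibitor of thrombin and plasminogen activators, was at 299, 308 and 288 CPM in dKO 5DPI nerve, against 106, 146 and 153 CPM in control 5DPI nerve. It was 1.14 higher on the log2 scale (adjusted p = 6.05e-05), and this held within the second library set (0.96, adjusted p = 0.0126). S100a10, a plasminogen receptor subunit, was lower (-0.56, adjusted p = 0.0203). Plaur, the urokinase receptor, was at 25.3, 21.0 and 28.1 CPM in dKO 5DPI nerve, against 63.2, 51.7 and 40.9 CPM in control 5DPI nerve. These groups were separate, and the difference did not pass (-1.07, SE 0.33, adjusted p = 0.0576), while the rise of Plaur after transection was smaller in dKO than in control nerve (1.87 and 3.94, difference -2.07, adjusted p = 0.0457). The call on the rise held in 3 of 12 fits with a library left out (adjusted p 0.00290 to 0.125).

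Of 18 Adamts genes, relatives of the metalloproteinases that Timp3 can inhibit, 2 were lower in dKO 5DPI nerve, close to the 8.97% of all genes called lower, and DESeq2 called 3 higher and 3 lower. The 2 encode aggrecanases and were called in each of the 12 fits with a library left out. Adamts5 was at 84.0, 81.2 and 82.8 CPM in dKO 5DPI nerve, against 188, 271 and 193 CPM in control 5DPI nerve (-1.39, adjusted p = 9.99e-05). Adamts4 was at 26.4, 23.1 and 25.4 CPM in dKO 5DPI nerve, against 49.0, 57.3 and 43.0 CPM in control 5DPI nerve (-0.99, adjusted p = 0.000943). Of 9 Adam genes, 1 was higher (Adam19) and 1 lower (Adam10), beside 3.12% and 8.97% of all genes. These calls held in 9 and 5 of the 12 fits with a library left out. Of 7 genes that activate or dock metalloproteinases, Cd44, the hyaluronan receptor that holds MMP9 at the cell surface, was lower (-0.74, adjusted p = 0.0123).

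Among 19 substrates of these enzymes, 8 were higher and 1 was lower in dKO 5DPI nerve, beside 3.12% and 8.97% of all genes. Hspg2 (perlecan) averaged 1698 ± 73.9 CPM in dKO 5DPI nerve and 891 ± 34.8 CPM in control 5DPI nerve (0.93, adjusted p = 6.56e-05), and Mbp, a myelin protein cut by MMP9, averaged 671 ± 96.0 CPM and 324 ± 71.7 CPM in these groups (1.05, adjusted p = 0.00117). Of 7 AP-1 factors, which bind promoters of several metalloproteinase genes, 2 were lower, beside 8.97% of all genes. Jun was at 295, 297 and 291 CPM in dKO 5DPI nerve, against 548, 491 and 463 CPM in control 5DPI nerve (-0.77, adjusted p = 0.00119), and Fosl1 was lower too (-0.72, adjusted p = 0.0364). The call of Jun held in all 12 fits with a library left out, and that of Fosl1 in 8 of them. Without control 5DPI replicate 1, the female library, 5 substrates were higher and 1 lower, 1 of the other metalloproteinases was higher and 1 lower, 1 gene of the plasminogen system was higher and 1 AP-1 factor lower. In that fit the Adam genes and the genes of activation and docking had no call, with 3 and 2 at an unadjusted p under 0.05, against 1 higher and 1 lower Adam gene and 1 lower docking gene in DESeq2 on all libraries. Over all genes, 4903 had an unadjusted p under 0.05 in the fit without the female library. With the library set term, the calls left among these lists at 5 days were Serpine2, Adamts5, Hspg2 and Mbp.

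**Figure D5:**
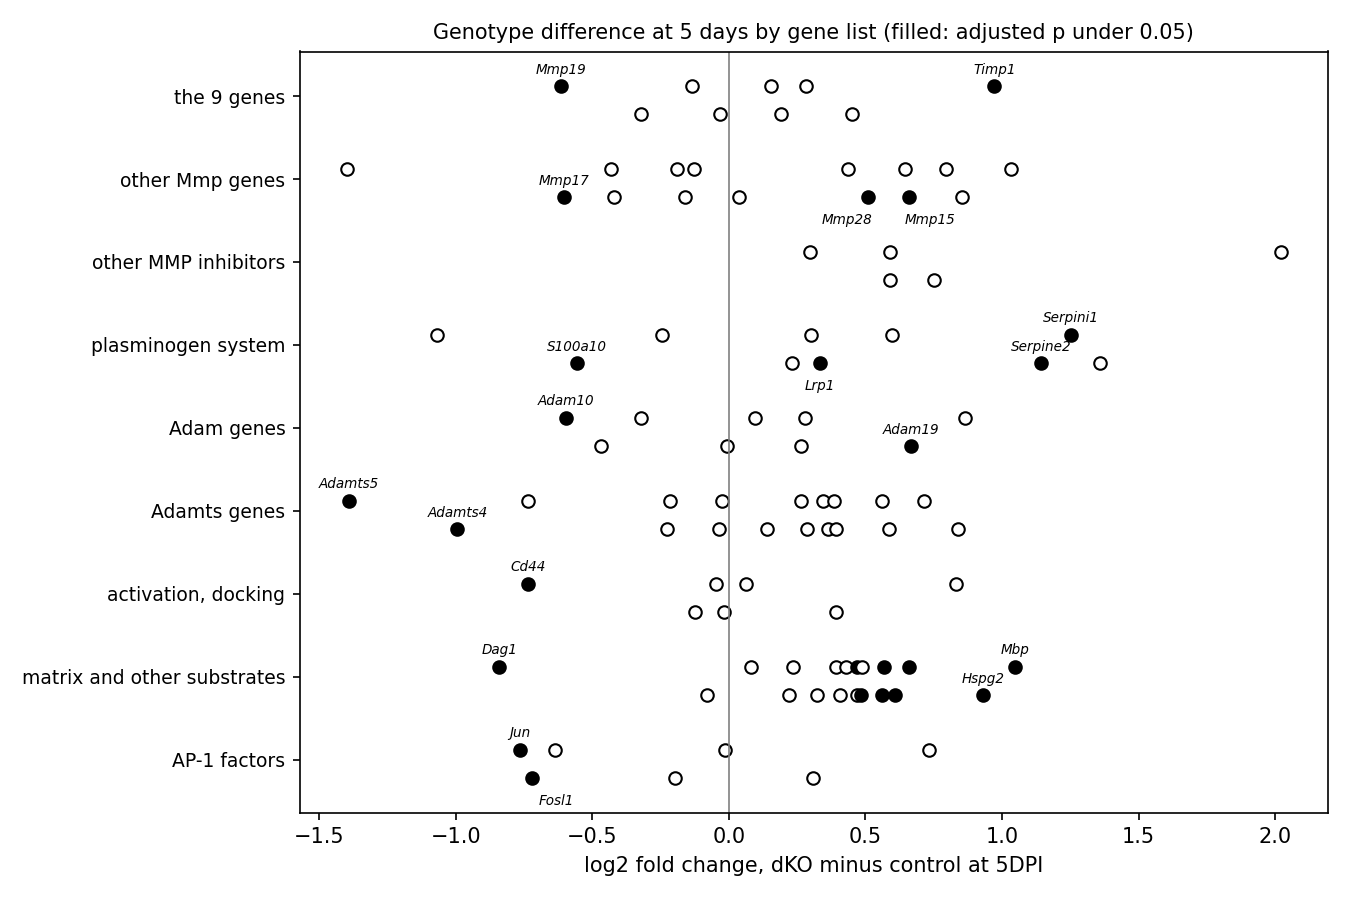
Log2 fold change between dKO and control nerve at 5DPI (x axis) for each tested gene of 9 lists (rows); points are genes, filled where the adjusted p is under 0.05, and points are set at 2 heights in a row only to keep them apart. Timp1 (0.97) and Mmp19 (-0.61) are the filled points among the 9 genes, and the filled points of the Adamts row in this edgeR fit are Adamts5 (-1.39) and Adamts4 (-0.99).

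For each of the 9 genes, the genes with the most similar profile over the 12 libraries were found by the root mean square distance between log2 levels, each centred on its own mean, among 12768 genes. The nearest to Timp1 was Tnc (tenascin-C, a matrix protein of injured nerve) at a distance of 0.554. Tnc had similar levels in the injured groups (515 ± 75.9 CPM in dKO and 487 ± 125 CPM in control 5DPI nerve), a log2 difference of 0.082 (adjusted p = 0.776) beside 0.97 for Timp1. The nearest to Mmp19 was Cmtm3 at 0.110, to Mmp2 Casp4 at 0.138, to Mmp14 Bag3 at 0.177 and to Plat Chpf at 0.129. The nearest to Plau were Mnda at 0.261 and Ifi204 at 0.308, and to Mmp9 it was Smpd3 at 0.363. For Timp2 it was Tk2 at 0.0499. For Timp3 it was Syn3 at 0.00986, whose counts nearly equal its own, and then Ddah1 at 0.108.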

How the data were processed

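Polyadenylated RNA of whole sciatic nerve was sequenced in 12 libraries (3 for each of 4 groups). The authors deposited a table of raw counts per gene and a table of normalized signal, in which each library's counts are divided by 1 factor (the ratio was constant to 0.124% over genes with at least 1000 counts). The submitters' processing notes name mm10, DESeq2 and R 4.2.1. The aligner, counter, annotation and strand setting are not stated there. From the deposited counts, tests were run in R 4.3.3 with edgeR 4.0.16 (robust quasi-likelihood fit of 4 group means, TMM factors, filterByExpr at a minimum count of 10, Benjamini-Hochberg adjustment over 22384 genes). Alternatives used DESeq2 1.42.0, limma 3.58.1 (voom, and limma-trend on the normalized signal with pseudocounts of 1 and 10), other scalings and filters, terms for library set, sex and replicate number, and each library left out. Of 38087 rows, 278 symbols stood on several lines, none of them a member. Exon lengths and positions are from GENCODE M21 and promoters from RefSeq, both GRCm38. No protein sequence was used here. Genes named from the wider lists were taken from the 4 tested genes per list with the smallest p between genotypes at 5 days and the 4 with the smallest p for injury in control nerve. The 9 genes, the lists and the library set and sex terms were chosen with earlier results of these data known. The fit was also run on simulated data without library set or sex effects, and no result here rests on that run.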

Additional observations from a re-analysis of the deposited data

Results flagged for a closer look

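No member was among the results that met a criterion for a closer look. For 9 genes of the wider lists, the change after transection differed between dKO and control nerve in edgeR's quasi-likelihood test of that difference (log2 change in dKO minus log2 change in control, Benjamini-Hochberg adjusted p over all genes). Serpine2, an inhibitor of plasminogen activators, differed by 1.21 (adjusted p = 0.00199) and its values at 5 days were 298 ± 10.5 CPM in dKO and 135 ± 25.3 CPM in control nerve (SD, n = 3 each). Hspg2 differed by 0.92 (adjusted p = 0.00356) and Mbp by 1.20 (adjusted p = 0.0136). With the library set term, which rests on 1 control 5DPI library, the differences of these 3 were 1.03, 0.98 and 1.60. With genotype and replicate number as a block, Hspg2 (adjusted p = 0.0669) and Mbp (adjusted p = 0.0962) did not pass.

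The aggrecanase gene Adamts5 differed by -1.39 (adjusted p = 0.00457), Mmp17 by -0.97 (adjusted p = 0.00907), Jun by -0.82 (adjusted p = 0.0211), Fosl1 by -1.32 (adjusted p = 0.0287) and the urokinase receptor gene Plaur by -2.07 (adjusted p = 0.0457). These 5 did not pass with the library set term (adjusted p between 0.0767 and 0.337). Syn1 differed by 0.77 (adjusted p = 0.0121), and a number equal to the counts of Timp1, which lies inside it, made up 81.9% to 93.5% of its counts at 5 days. With genotype and replicate number as a block, Jun (adjusted p = 0.0603), Mmp17 (adjusted p = 0.0847), Syn1 (adjusted p = 0.107) and Plaur (adjusted p = 0.146) did not pass either.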

How the results depend on the processing

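Of the values of the 9 genes under the alternatives, 1038 kept their direction and side of the threshold, 40 lost and 16 gained a call, and 22 changed sign, none of them called; of those of other named genes, 2303 were kept, 213 lost a call and none changed sign. The library set term, and its form without the female library, which was added after seeing the data, gave 4299 and 3496 calls for injury in dKO nerve (9997 in the fit reported), 515 and 559 between genotypes at 5 days (2707), with 0 of the 9 genes called in either form, and 172 and 190 in the difference of injury changes (650). At 5 days such a fit compares dKO nerve with 1 control library. All dKO 5DPI libraries are in the second set and no dKO intact library is, so injury and library set cannot be told apart in dKO nerve. For injury in dKO nerve the term rests on control 5DPI replicate 4 against the other control 5DPI libraries. The sex term gave 1731 calls between genotypes at 5 days. DESeq2 gave 1057 calls in the difference, and there DESeq2 and the fit with no filter called 1 of the 9 genes, Mmp19.

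In intact nerve, where 1 gene was called between genotypes, DESeq2 called 7, no filter 5, normalized values 3 and 4 at pseudocounts of 1 and 10, the library set term 3, DESeq2 size factors and upper-quartile scaling 2 each, and limma-voom, the stricter filter, the compared groups alone, the sex term and the replicate block 0.

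Leaving out 1 library gave 9193 to 10523 calls for injury in control nerve (6 to 7 of the 9 genes), 8114 to 10995 in dKO nerve (6 to 8), 0 to 3 between genotypes in intact nerve, 1577 (without dKO 5DPI replicate 3) to 4225 (without control 5DPI replicate 4) between genotypes at 5 days (2 to 3) and 352 to 1276, without the same libraries, in the difference (0 to 1). Between genotypes at 5 days the count was also 1714 without control 5DPI replicate 1 and 1692 without dKO 5DPI replicate 2. In the difference it was 419 without control intact replicate 3, 379 without dKO intact replicate 2 and 426 without dKO intact replicate 4.

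Sign changes were as follows. With the set term, Mmp9 was at -0.35 after injury in dKO nerve (-0.62 without the female library) and at -0.37 between genotypes at 5 days, Mmp14 at 0.068 there, and Timp2 at 0.031 after injury in control nerve (without the female library). Between genotypes at 5 days, Timp2 was at 0.069 under upper-quartile scaling and between -0.15 and 0.041 with a library left out. In intact nerve, Mmp14 ran between -0.13 and 0.36 and Mmp19 between -0.032 and 0.15 with a library left out. In the difference, Mmp9 was at 0.054 in limma-voom, 0.15 with the block and between -0.44 and 0.56 with a library left out, and Mmp14 between -0.45 and 0.039.

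Same-numbered intact and 5DPI libraries of 1 genotype were correlated in their deviations from group means. The values were 0.118, 0.100 and -0.0131 for dKO replicates 2, 3 and 4, and -0.0895 and -0.00496 for control replicates 1 and 2. Same-numbered libraries of different genotypes ran from -0.213 to 0.0497. Whether the replicate numbers pair libraries of 1 mouse is not stated, and these values do not decide it. A block on the number alone, shared by the genotypes, gave 1386 calls between genotypes at 5 days. A block on genotype and number, which pairs same-numbered intact and 5DPI libraries of a genotype, gave 290 calls in the difference. There Jun (adjusted p = 0.0603), Hspg2 (adjusted p = 0.0669), Mmp17 (adjusted p = 0.0847), Mbp (adjusted p = 0.0962), Syn1 (adjusted p = 0.107) and Plaur (adjusted p = 0.146) were not called. Among the members, Mmp9 and Plau had the widest errors for the change after transection.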
